A study of Mus musculus with 15 samples.

Results

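The genes described here are 40 mouse genes that are known to be imprinted, chosen by name and reported by imprinted domain. They were looked up in the count table of cultured mouse retinal pigment epithelium cells (mRPE), which holds 20910 genes, and in that of mouse RPE/choroid, which holds 25038 genes. By their listed symbols, 31 of the 40 had a row in the mRPE table and 35 in the RPE/choroid table. Asb4, Nap1l5, Phlda2 and Zdbf2 had a row only in the RPE/choroid table. The remaining 5 (Cd81-as, Magel2, Nespas, Snurf and Zrsr1) had no row under that symbol in either table used here. Of these 5, Nespas and Zrsr1 were found by gene identifier, and their values are given apart from the counts of members. Every member with a row passed the filter on low counts, so 31 were tested in mRPE cells and 35 in RPE/choroid. Gene positions are on GRCm39 by GENCODE vM39.

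An imprinted gene is expressed mainly or only from the copy inherited from one parent. Imprinted genes lie in clusters, each governed by an imprinting control region whose DNA methylation is set in the egg or the sperm and kept through cell division by the maintenance methyltransferase Dnmt1 and by the zinc finger protein Zfp57, which binds the methylated hexamer TGCCGC. Many of these genes act on growth. Paternally expressed ones such as Igf2, Peg3, Mest and Dlk1 tend to promote it, and maternally expressed ones such as H19, Cdkn1c, Grb10 and Igf2r tend to restrain it, and many of them decline in most tissues after birth. RNA counts as deposited do not tell the parental copies apart, so every value below is the sum over both.

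The cultured cells came from pooled C57/BL6J RPE cells that were immortalized with the papillomavirus genes E6 and E7 by lentivirus and then made to express Cas9 under puromycin selection. WT mRPE (4 libraries) received a scrambled guide RNA, and the Prom1-KO clones KO22 (3 libraries) and KO26 (2 libraries) a guide RNA against Prom1 exon 5. RPE/choroid was labelled WT or Prom1-KO (3 libraries each). The Prom1-KO tissue came from Prom1 fl/fl mice crossed with RPE65-Cre mice and given tamoxifen, so the deletion was aimed at RPE cells only. Adult mice of both sexes were used. Whether the WT mice carried the floxed alleles or the Cre or received tamoxifen, and the age and sex behind each library, are not given in the sources used here. Each KO group in culture is 1 clone, so the deletion and the clone cannot be told apart, and the methods of the study leave both KO26 libraries out of its own tests. The study speaks of biological replicates, but no source used here says which culture or animal a library came from, so the p-values measure only the spread between these libraries. The mRPE libraries were sequenced in 2 batches, read from the library names. Replicate 1 of each mRPE group was in batch 1, all other replicates were in batch 2, and values are listed below in replicate order.

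Library totals were 8076188 to 27537863 counts in mRPE and 48154444 to 61766179 in RPE/choroid. The mitochondrial ribosomal RNAs took 11.1% to 19.03% of the mRPE counts and 55.3% to 63.2% of those of 5 RPE/choroid libraries, but 80.4% in replicate 3 of RPE/choroid labelled Prom1-KO, which kept 12130562 other counts. Prom1, the deleted gene, had no row under its symbol in the mRPE table used here, so it could not check those labels. In RPE/choroid it stood at 48.7, 49.6 and 53.3 CPM (counts per 1000000 library counts, scaled by TMM) in WT and at 49.9, 48.1 and 35.5 CPM in Prom1-KO, a difference within the spread by edgeR (log2 fold change -0.18, SE 0.16, adjusted p = 0.824). Those counts cover the whole gene in a mixed tissue and do not check the labels. Of 10 RPE markers, 3 had a row in the mRPE table (Best1, Pmel and Mitf), and their summed level was 8.18 to 12.8 CPM in WT mRPE. Rpe65, Lrat, Rgr, Rlbp1, Ttr, Tyrp1 and Otx2, which define the cell type, had no row there, while 5 fibroblast markers summed to 11017 to 13942 CPM.

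Most of the 31 listed imprinted genes tested in cultured mRPE cells were lower in clone KO22. The list was drawn up with earlier results of these data known. Of 34 imprinted genes tested outside it, 8 were lower, as given below. Of the 31 members tested, 20 were called lower and 1, Grb10, was called higher than WT by edgeR's quasi-likelihood test with batch as a term, a call being an adjusted p below 0.05 with a log2 fold change of more than 1.2 in size. Over all 20455 genes tested, 13.8% were called lower and 11.4% higher. Among the 20, Igf2, Cdkn1c, Slc22a18, Dio3 and Snrpn had fewer than 5 counts in every KO22 library. They passed the filter on low counts through the WT libraries alone, so they could only be called lower. H19, Ppp1r9a, Rtl1, Usp29, Zim1 and Ndn had fewer than 5 counts in at least 1 KO22 library. They too needed WT libraries, where they were high, to pass the filter. The median log2 fold change of the 31 members was -2.71, beside -0.03 for all genes. H19, Plagl1, Zim1, Mest and Peg3 were among those that fell furthest, from 27.3-fold for Peg3 to 104-fold for H19. The 10 members that were not called were Kcnq1ot1, Kcnq1, Igf2r, Airn, Peg10, Nnat, Gnas, Sfmbt2, Trappc9 and Impact. Of the genes found by identifier and counted apart, Zrsr1 was called lower and Nespas higher.

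**Figure D1:**
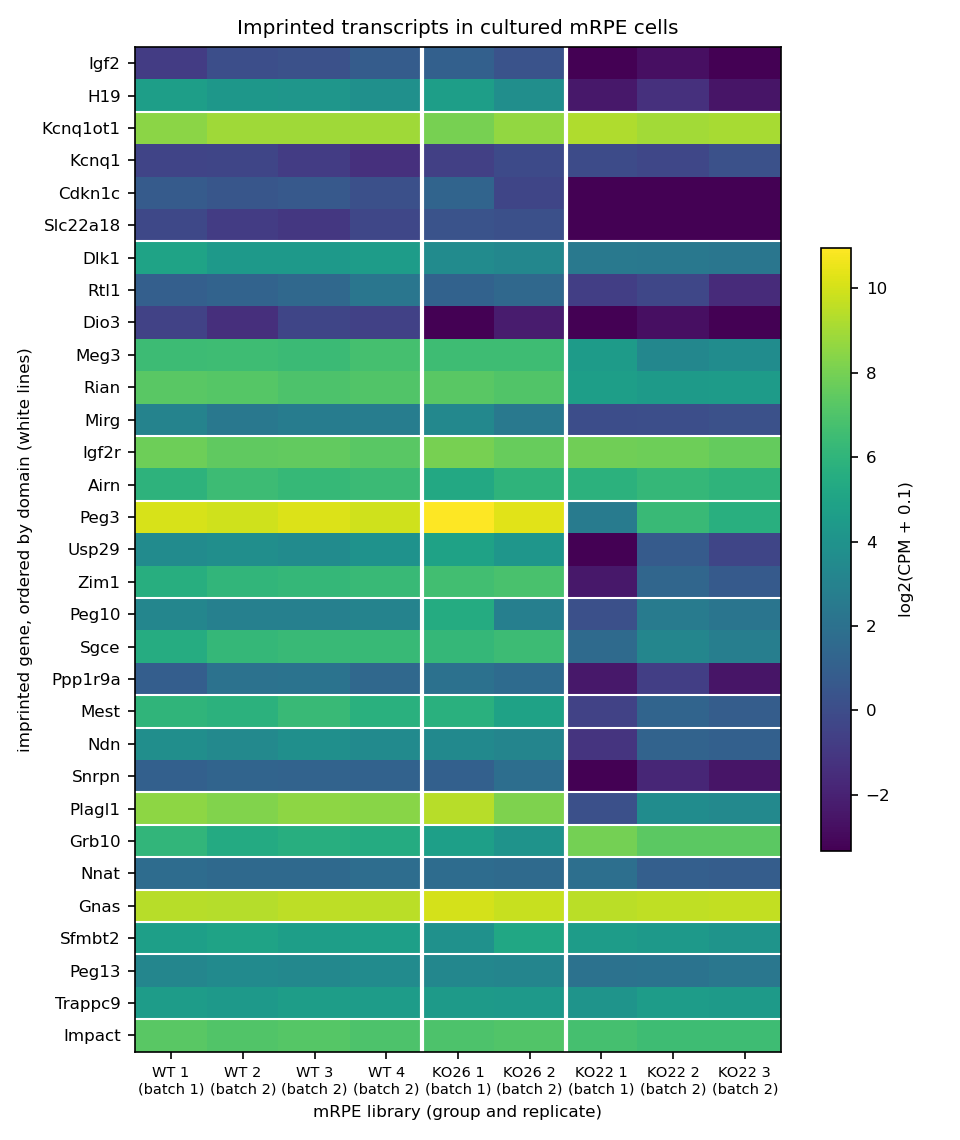
Level of each of the 31 imprinted genes with a row in the mRPE table, as log2(CPM + 0.1), in the 9 libraries (4 WT, 2 KO26, 3 KO22), with genes ordered by domain. The KO22 columns are darker for the Peg3, Mest, Snrpn, Plagl1, Dlk1 and Igf2 domains and brighter for Grb10, with 161 to 246 CPM in KO22 and 42.8 to 67.5 CPM in WT.

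Both genes of the Igf2-H19 domain on chromosome 7 were lower in KO22. H19 is a noncoding RNA of the maternal copy that serves as a precursor of miR-675. H19 (chr7:142129262-142133957) had 25.1, 18.9, 18.3 and 14.1 CPM in the WT libraries, 0.0865, 0.289 and 0.0776 CPM in KO22 and 25.1 and 13.1 CPM in KO26. Its KO22 libraries held 1, 6 and 1 counts, against 186 to 633 in WT, which is 104-fold lower (log2 fold change -6.70, SE 0.35, adjusted p = 1.14e-06). Igf2 encodes insulin-like growth factor 2, a fetal growth factor expressed from the paternal copy. Igf2 (chr7:142204503-142220694) had 0.477, 0.960, 1.08 and 1.65 CPM in the WT libraries, 0, 0.0482 and 0 CPM in KO22 and 2.00 and 1.16 CPM in KO26. Over all libraries that is 60 counts in WT and 1 in KO22, a ratio of 42.5 with an exact 95% interval of 7.33 to 1704 that covers counting error only (adjusted p = 0.000323). The 1 count was in KO22 replicate 2, and without that library the log2 fold change of H19 was -7.88. Igf2 was near the limit of detection in WT already, whereas H19 was well counted, and neither gene overlapped between WT and KO22. Of the 31 other tested genes within 1 Mb of this pair, with listed imprinted genes left out here and in all counts of neighbours below, 8 were lower and 3 higher in KO22. Their median log2 fold change was -0.52, beside -0.32 for the 1452 tested genes of chromosome 7. The 8 lower ones include Gm56421 and Gm56420, which are centred within H19, and Igf2os, centred within Igf2.

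In the Kcnq1-Cdkn1c domain, on the same chromosome, 2 of 4 tested members were lower in KO22 and the other two were not called. Cdkn1c encodes p57, an inhibitor of cyclin-dependent kinases. Cdkn1c (chr7:143012069-143014806) had 1.59, 1.30, 1.47 and 1.00 CPM in the WT libraries, 0, 0 and 0 CPM in KO22 and 2.32 and 0.694 CPM in KO26. With no count in any KO22 library and 88 in WT, Cdkn1c was at least 20.8-fold lower, against a floor of 3 counts over the group (adjusted p = 0.000244). Slc22a18, a transporter gene, showed the same pattern at lower counts. Slc22a18 (chr7:143027466-143053072) had 0.755, 0.480, 0.393 and 0.718 CPM in the WT libraries, 0, 0 and 0 CPM in KO22 and 1.16 and 1.04 CPM in KO26. It had no count in KO22 and 40 in WT, at least 9.43-fold lower (adjusted p = 0.00144). Kcnq1ot1, the long noncoding RNA of the paternal copy that keeps its neighbours silent there, had the highest level per length of the domain in WT mRPE (4.78 CPM per kb of exon). Kcnq1ot1 (chr7:142731402-142850327) had 353, 485, 479.7 and 477 CPM in the WT libraries, 607, 512 and 544 CPM in KO22 and 262 and 395 CPM in KO26. All 3 KO22 libraries lay above all WT libraries, but the difference did not pass the test (log2 fold change 0.33, SE 0.14, adjusted p = 0.0791). Kcnq1, a potassium channel gene, had 4 to 17 counts per WT library and a log2 fold change of 0.68 that was not called either.

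All 6 tested members of the Dlk1-Dio3 domain on chromosome 12 were lower in KO22, those of the paternal copy (Dlk1, Rtl1, Dio3) and those of the maternal copy (Meg3, Rian, Mirg) alike. Dlk1 encodes a transmembrane protein of the Notch ligand family that restrains differentiation. Dlk1 (chr12:109418749-109429262) had 31.5, 21.1, 21 and 24 CPM in the WT libraries, 5.45, 5.16 and 4.73 CPM in KO22 and 11.9 and 9.72 CPM in KO26. The KO22 libraries lay below all others, 4.81-fold under WT on the fitted scale (log2 fold change -2.27, SE 0.15, adjusted p = 4.7e-06). Meg3, Rian and Mirg are long noncoding RNAs transcribed in one direction across the domain, with Meg3 at the highest level per length in WT (4.82 CPM per kb of exon).

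Meg3 (chr12:109506877-109538165) had 89.1, 91.8, 84.8 and 106 CPM in the WT libraries, 22.7, 9.50 and 12.2 CPM in KO22 and 92.6 and 92.2 CPM in KO26. Rian (chr12:109570242-109628150) had 158, 146, 127 and 134 CPM in the WT libraries, 25.8, 21.6 and 22.6 CPM in KO22 and 160.5 and 137 CPM in KO26. Meg3 fell by 2.77 (SE 0.24, adjusted p = 1.67e-05) and Rian fell by 2.62 (SE 0.11, adjusted p = 4.64e-07) on the log2 scale, and in both the KO22 libraries stayed far under the lowest WT library. Mirg (chr12:109696198-109715898) had 8.22, 5.21, 6.28 and 6.60 CPM in the WT libraries, 0.951, 0.964 and 1.09 CPM in KO22 and 10.1 and 5.32 CPM in KO26. Mirg, which hosts a cluster of microRNAs, was 6.56-fold lower in KO22 (log2 fold change -2.71, SE 0.25, adjusted p = 2.26e-05). Rtl1, a gene derived from a retrotransposon, had few counts. Rtl1 (chr12:109555627-109582007) had 1.87, 2.26, 2.75 and 4.81 CPM in the WT libraries, 0.519, 0.723 and 0.233 CPM in KO22 and 2.18 and 2.78 CPM in KO26. All KO22 libraries lay below all WT libraries (log2 fold change -2.44, SE 0.46, adjusted p = 0.00161). Dio3, a thyroid hormone deiodinase gene, was close to the floor. Dio3 (chr12:110245502-110247531) had 0.596, 0.274, 0.687 and 0.574 CPM in the WT libraries, 0, 0.0482 and 0 CPM in KO22 and 0 and 0.116 CPM in KO26. That is 34 counts in WT and 1 in KO22, a ratio of 24.1 with an exact 95% interval of 4.04 to 978 (adjusted p = 0.00261), and the 1 count was in KO22 replicate 2. The log2 fold changes of the 5 members other than Dio3 lay between -2.27 and -2.77. Of the 46 neighbours within 1 Mb, 12 were lower and 1 higher (median -0.46, chromosome median -0.50), and B830012L14Rik (log2 fold change -2.51) and Gm37899 (-2.50) had the smallest adjusted p of them. Most of the 12 lie along the stretch from Meg3 to Mirg.

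The Peg3-Zim1 domain on chromosome 7 held the most abundant imprinted transcript of WT mRPE cells. Peg3 encodes a zinc finger protein of the paternal copy, at 77.4 CPM per kb of exon in WT. Peg3 (chr7:6706882-6733468) had 1104, 954, 1186 and 988 CPM in the WT libraries, 6.14, 80.2 and 51.7 CPM in KO22 and 1983 and 1249 CPM in KO26. KO22 was 27.3-fold lower (log2 fold change -4.77, SE 0.62, adjusted p = 0.000191), with replicate 1 far below the other two KO22 libraries. Without KO22 replicate 1 the log2 fold change was -3.96, without WT replicate 1 it was -3.99 and without KO22 replicate 2 it was -5.37. Zim1, a zinc finger gene of the maternal copy, followed it. Zim1 (chr7:6674268-6699500) had 48.8, 67.6, 72.9 and 83.1 CPM in the WT libraries, 0.0865, 2.56 and 1.55 CPM in KO22 and 97.7 and 114 CPM in KO26. It was 45.6-fold lower in KO22 (log2 fold change -5.51, SE 0.38, adjusted p = 4.57e-06). Usp29 (chr7:6733577-6970218) had 11.9, 13.2, 11.9 and 15.1 CPM in the WT libraries, 0, 1.59 and 0.698 CPM in KO22 and 29.9 and 17.9 CPM in KO26. Usp29, a ubiquitin peptidase gene that starts next to Peg3 on the other strand, was 15.5-fold lower (log2 fold change -3.95, SE 0.49, adjusted p = 0.000144). Without KO22 replicate 2, the log2 fold change was -5.12 for Usp29 and -6.25 for Zim1. In all 3 genes KO26 libraries lay above every WT library while KO22 libraries lay below. Of all genes tested, 11.9% lay above WT in every KO26 library and 25.3% below WT in every KO22 library. None of the 3 was called in KO26 by edgeR (adjusted p = 0.498 for Peg3, 0.291 for Usp29 and 0.183 for Zim1). Of 23 neighbours 10 were lower and none higher in KO22, and their median log2 fold change was -0.95.

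Among the Peg10-Sgce genes on chromosome 6, Sgce and Ppp1r9a were lower in KO22 and Peg10 was not called. Sgce, which encodes epsilon-sarcoglycan, had the highest level per length of the domain in WT (5.07 CPM per kb of exon). Sgce (chr6:4672057-4747207) had 45, 72.3, 80.1 and 79.5 CPM in the WT libraries, 2.94, 9.45 and 6.75 CPM in KO22 and 73.9 and 89.9 CPM in KO26. Its level was 10.6-fold lower in KO22 (log2 fold change -3.41, SE 0.18, adjusted p = 1.24e-06). Ppp1r9a (chr6:4902745-5165667) had 1.83, 4.11, 4.22 and 2.73 CPM in the WT libraries, 0.0865, 0.530 and 0.0776 CPM in KO22 and 3.85 and 3.12 CPM in KO26. Ppp1r9a, which encodes the actin-binding protein neurabin, had 1, 11 and 1 counts in KO22 (log2 fold change -3.52, SE 0.48, adjusted p = 0.000264), and without replicate 2 its log2 fold change was -5.00. Peg10 (chr6:4747306-4760517) had 9.26, 7.40, 7.46 and 8.18 CPM in the WT libraries, 1.04, 6.03 and 4.66 CPM in KO22 and 43.6 and 7.17 CPM in KO26. Peg10, a retrotransposon-derived gene of the paternal copy, lay below WT in all KO22 libraries, but its log2 fold change of -1.09 (SE 0.40, adjusted p = 0.0426) did not reach the fold limit. Of 10 neighbours 7 were lower and 1 higher, at a median log2 fold change of -1.52, the lowest of the 15 domains with a test. Pdk4 (log2 fold change -3.03) and Gm44250 (-2.58) had the smallest adjusted p among them.

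Mest, Plagl1 and Grb10 each stood alone in their domains. Mest, a gene of the alpha/beta hydrolase fold expressed from the paternal copy in mesoderm, lies on chromosome 6. Mest (chr6:30723546-30752058) had 65.1, 57.4, 80.7 and 53.8 CPM in the WT libraries, 0.605, 2.31 and 1.78 CPM in KO22 and 53.8 and 30.2 CPM in KO26. KO22 was 38.9-fold lower (log2 fold change -5.28, SE 0.31, adjusted p = 2.16e-06), with all 3 libraries at 2.31 CPM or under. Of 27 neighbours, 11 were lower and 2 higher (median -0.96), not counting the imprinted gene Copg2, which was lower too (log2 fold change -3.01). Plagl1, a zinc finger transcription factor that restrains the cell cycle, lies on chromosome 10. Plagl1 (chr10:12936248-13007438) had 364, 306, 371 and 338 CPM in the WT libraries, 1.04, 12.1 and 10.6 CPM in KO22 and 689.5 and 288 CPM in KO26. It was 46.3-fold lower in KO22 (log2 fold change -5.53, SE 0.53, adjusted p = 3.01e-05), and KO22 replicate 1 held 12 counts. Without that library the log2 fold change was -4.87, and without WT replicate 1 it was -4.89. Its 12 neighbours had a median log2 fold change of -0.50, close to the -0.54 of chromosome 10. Of them 2 were lower (Fuca2, at -2.18, and Gm55880, at -7.12, which is centred within Plagl1) and 1 was higher. The imprinted gene Phactr2 next to it, not among the 12, was lower (log2 fold change -4.01).

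Grb10 moved the other way. The gene encodes an adaptor that binds insulin and IGF receptors and limits their signalling. Grb10 (chr11:11880498-11988683) had 67.5, 42.8, 49.9 and 44.6 CPM in the WT libraries, 246, 165 and 161 CPM in KO22 and 26.3 and 16 CPM in KO26. It was higher in KO22 (log2 fold change 1.84, SE 0.10, adjusted p = 1.49e-06), with no overlap between groups, and lower in KO26 (log2 fold change -1.45, SE 0.14, adjusted p = 0.00139). Only 2 other genes within 1 Mb could be tested for KO22, and one, Fignl1, was higher (log2 fold change 1.67). Zrsr1, an imprinted splicing factor gene found by its identifier, had 22.2, 28.4, 27.7 and 32.2 CPM in WT, 2.94, 6.60 and 5.97 CPM in KO22 and 18.9 and 27.8 CPM in KO26. It was 5.28-fold lower in KO22 (log2 fold change -2.40, SE 0.18, adjusted p = 6.75e-06).

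In the Snrpn-Ndn domain of chromosome 7 both tested members, of the paternal copy, were lower. Ndn (chr7:61995473-62000010) had 13, 10.6, 13.8 and 11.4 CPM in the WT libraries, 0.346, 2.22 and 2.02 CPM in KO22 and 10.9 and 8.91 CPM in KO26. Ndn, which encodes necdin, a protein of the MAGE family that restrains growth and is expressed in neurons, had the highest level per length there (3.23 CPM per kb of exon) and was 7.82-fold lower (log2 fold change -2.97, SE 0.38, adjusted p = 0.000175). Snrpn (chr7:59630427-59820763) had 1.99, 2.33, 2.26 and 2.15 CPM in the WT libraries, 0, 0.193 and 0.0776 CPM in KO22 and 1.95 and 3.47 CPM in KO26. Snrpn encodes a small nuclear ribonucleoprotein. It had 0, 4 and 1 counts in KO22 (log2 fold change -4.25, SE 0.51, adjusted p = 0.000109), and without replicate 2 its log2 fold change was -5.46. Of 10 neighbours, 2 were lower and none higher.

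Peg13, a noncoding RNA within an intron of Trappc9 on chromosome 15, was the member closest to the fold limit among those called. Peg13 (chr15:72677449-72682173) had 9.26, 11.2, 10.0 and 11.8 CPM in the WT libraries, 4.06, 4.19 and 4.89 CPM in KO22 and 9.61 and 9.02 CPM in KO26. The log2 fold change was -1.26 (SE 0.17, adjusted p = 0.000245), while the median gene of chromosome 15 was higher, at 0.37. Trappc9, a trafficking complex gene of lower level per length, had 20.1 to 25 CPM in WT and 16.9 to 23.6 CPM in KO22. Its log2 fold change was -0.15. None of 12 neighbours was called.

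In the remaining 5 domains no member found by its listed symbol was called in KO22, whereas Nespas, found by identifier, was called higher. Igf2r, the receptor that carries IGF2 to lysosomes, and Airn, the noncoding RNA that overlaps it, lie on chromosome 17. Igf2r (chr17:12901293-12988614) had 222, 175, 186 and 158 CPM in the WT libraries, 234, 222 and 191 CPM in KO22 and 264 and 196 CPM in KO26. Igf2r (log2 fold change 0.20, SE 0.11, adjusted p = 0.163) and Airn (log2 fold change -0.22, with 59.7 to 87.4 CPM in WT) overlapped between WT and KO22. Of 26 neighbours of this pair, 10 were lower and 3 higher in KO22. Gnas (chr2:174126022-174188537) had 683, 663, 741 and 716 CPM in the WT libraries, 718, 778 and 785 CPM in KO22 and 1047 and 858 CPM in KO26. Gnas, the gene of the stimulatory G protein subunit, was not called (log2 fold change 0.12, SE 0.11, adjusted p = 0.362). Nespas, the antisense RNA of that domain, was found as Gnasas1. It had 2.90, 3.22, 2.75 and 3.66 CPM in WT and 12.1, 9.59 and 9.54 CPM in KO22, a rise (log2 fold change 1.72, SE 0.19, adjusted p = 8.09e-05), and 3.76 and 5.09 CPM in KO26.

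Nnat (chr2:157401879-157404573) had 3.18, 2.88, 2.85 and 3.30 CPM in the WT libraries, 3.63, 1.93 and 1.78 CPM in KO22 and 3.16 and 3.01 CPM in KO26. Nnat, a proteolipid gene of developing brain, did not pass the test (log2 fold change -0.41, SE 0.26, adjusted p = 0.219). Sfmbt2 (chr2:10375306-10600064) had 26.9, 31.5, 26 and 26.3 CPM in the WT libraries, 23.4, 20.6 and 16.4 CPM in KO22 and 14.6 and 35.6 CPM in KO26. Sfmbt2, a Polycomb group gene with a large microRNA cluster in one intron, lay below WT in all KO22 libraries, at a log2 fold change of -0.48 (SE 0.15, adjusted p = 0.0235) that lay under the fold limit. Impact, a translation regulator gene on chromosome 18, had 155, 136, 148 and 124 CPM in WT, 109, 90.2 and 91.3 CPM in KO22 and 125 and 135 CPM in KO26. It too lay below WT in all KO22 libraries, with a log2 fold change of -0.56 (SE 0.10, adjusted p = 0.00159).

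**Figure D2:**
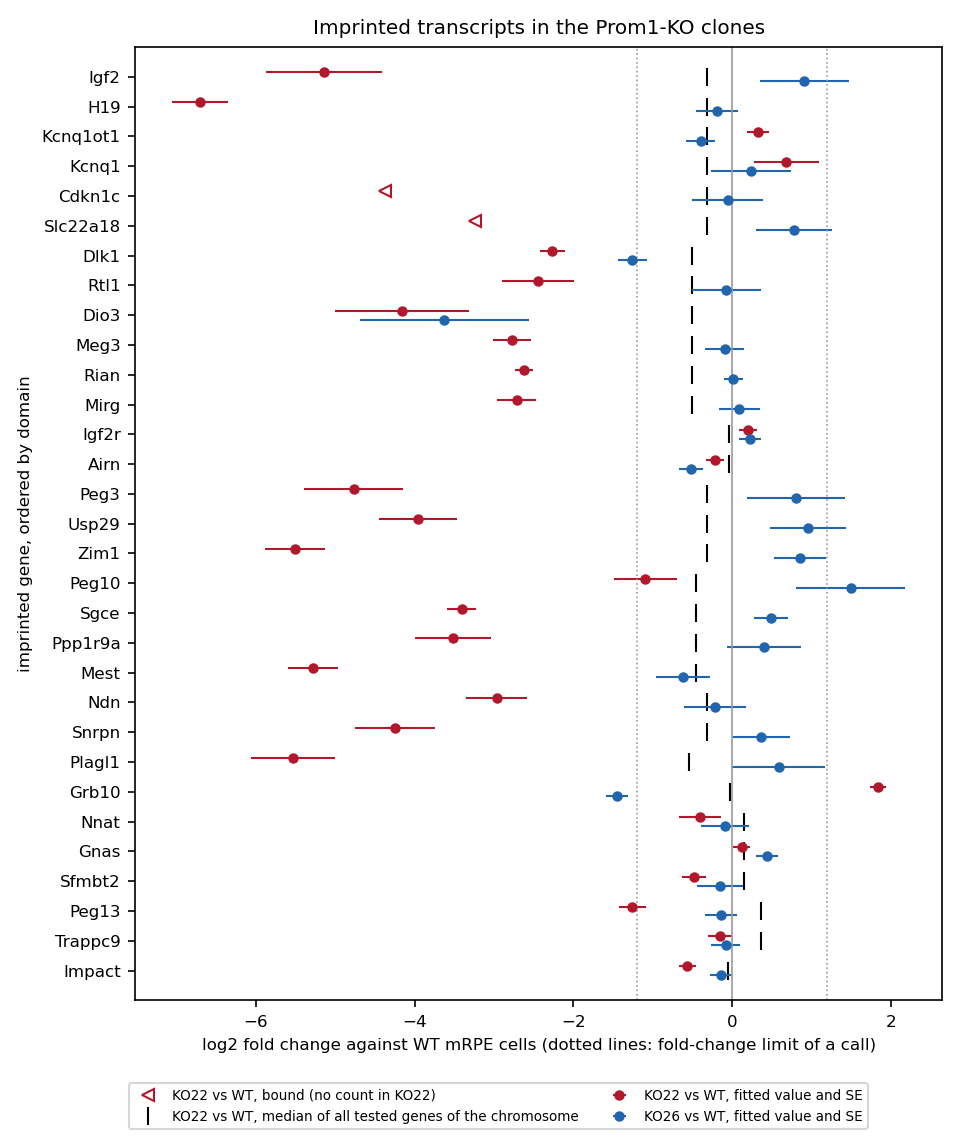
Log2 fold change against WT mRPE cells of the 31 imprinted genes, with SE, for KO22 (red) and KO26 (blue). Open triangles are bounds for Cdkn1c and Slc22a18, which had no count in KO22, and black ticks are the median of all tested genes of each gene's chromosome for KO22. KO22 points lie at -2.27 or lower in the Igf2, Dlk1, Peg3, Mest, Snrpn and Plagl1 domains, and KO26 points there lie between -0.62 and 0.96, apart from Dlk1 and Dio3.

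The members lower in KO22 included genes known to be expressed from the paternal copy and genes known to be expressed from the maternal copy. These assignments were not checked in these cells, and the counts do not tell the copies apart. Of the 18 tested members expressed from the paternal copy 12 were lower, and of the 10 expressed from the maternal copy 8 were lower, with median log2 fold changes of -2.7 and -3.14. Grb10, Gnas and Trappc9, whose expressed copy differs by tissue, had 1 gene higher and none lower. By transcript type, 5 of 7 long noncoding RNAs and 15 of 24 protein-coding members were lower. Neither split was tested. For Igf2 and H19, Dlk1 and Meg3, and Peg3 and Zim1, the genes assigned to either copy were lower in KO22. In the Kcnq1-Cdkn1c domain Cdkn1c of the maternal copy was lower while Kcnq1ot1 of the paternal copy was not, and neither Igf2r nor Airn was called.

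Other genes around the domains, which can include imprinted genes not listed here, had median log2 fold changes from -1.52 (Peg10-Sgce) to 0.57 (Peg13-Trappc9). Median log2 fold changes of the chromosomes ranged from -0.54 for chromosome 10 to 0.37 for chromosome 15 among those with members tested in mRPE, smaller in size than the changes of the members called. Some neighbours fell by as much as members did, such as Pdk4 near Sgce, from 53.2 to 6.18 CPM, and Gm45844 near Peg3, from 5.93 to 0.728 CPM (log2 fold change -2.96). Near Cdkn1c, Tnfrsf23 and E230032D23Rik were higher, by 2.00 and 2.12 on the log2 scale. Several members and neighbours overlap on one strand or on opposite ones. Kcnq1 spans Kcnq1ot1, Igf2r overlaps Airn, Rtl1 lies across Rian, Trappc9 spans Peg13, and B830012L14Rik and Gm37899 lie along the Meg3 to Mirg transcripts. The library kit keeps the strand, but which strand was counted is not given in the sources used here, so how overlapping genes share reads is uncertain.

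**Figure D3:**
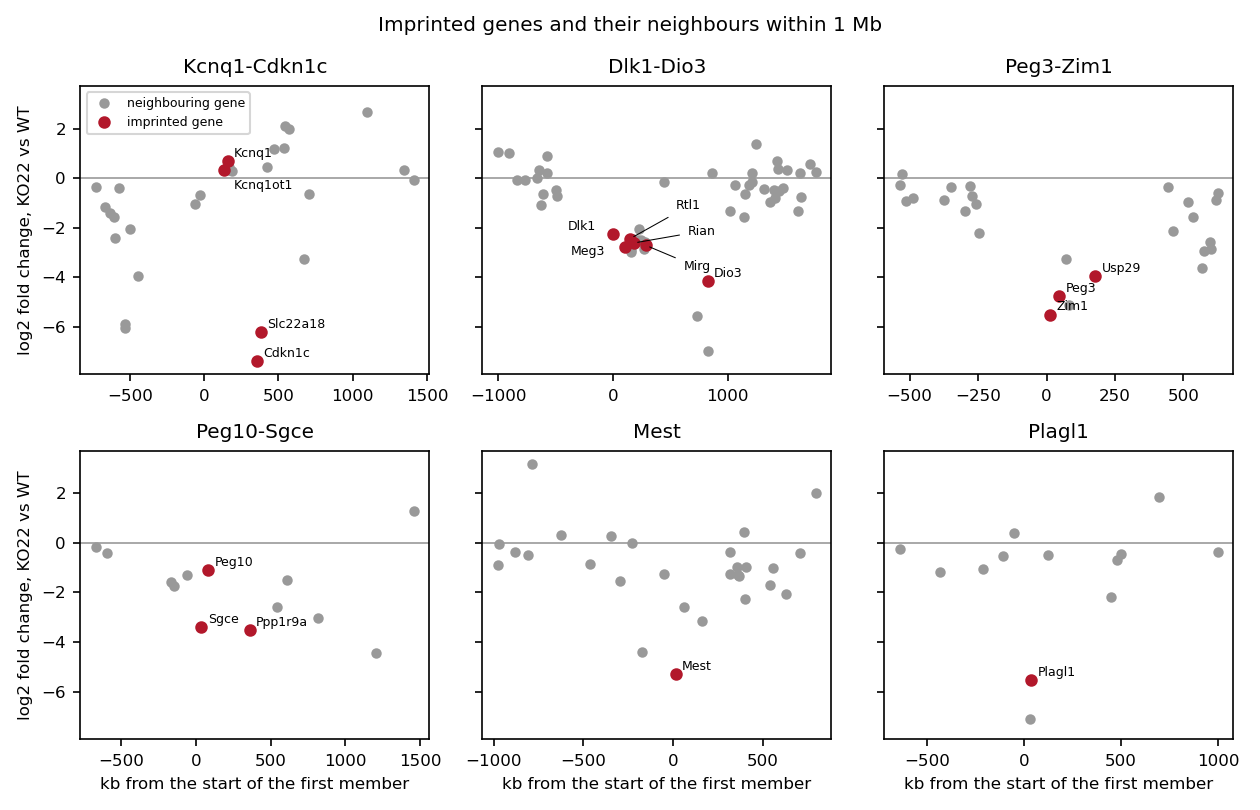
Log2 fold change in KO22 against WT (y axis, fitted values) by distance in kb of each gene's midpoint from the start of the first member of the domain (x axis), for imprinted genes (red) and the other tested genes within 1 Mb (grey, listed imprinted genes left out) in 6 domains. Fitted values of Cdkn1c and Slc22a18 have no count in KO22 behind them and are no bounds. Mest, Plagl1, Peg3, Zim1 and the Dlk1-Dio3 members lie at -2.27 or below, and most grey points lie above that.

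Promoter windows of 300 bases, from 250 before to 50 after the start of each gene's canonical transcript (GENCODE vM39, GRCm39), were searched for the hexamer TGCCGC on either strand, whose other strand reads GCGGCA. It was found in 12 of 35 members' windows (34.3%) and in 12.98% of the 20290 windows of genes tested in mRPE. Among members lower in KO22, 7 of 20 windows held it, and among those not called 3 of 10. Windows of neighbouring members can overlap, and 1 hexamer shared by 2 of them is counted once among the lower and once among those not called. The median number of CpG pairs in a window was 15 for members and 12 for all genes. An imprinted gene can have several starts, and the canonical one need not be the imprinted one. The windows of 3 members that were lower in KO22 and of Grb10, the 1 that was higher, are printed 5′ to 3′ on the gene's own strand, with the hexamer in capitals. They are H19 (chr7:142133908-142134207, minus strand), Mest (chr6:30737794-30738093, plus strand), Plagl1 (chr10:12966159-12966458, plus strand) and Grb10 (chr11:11987370-11987669, minus strand), and they show that the hexamer stood in windows of genes that moved in either direction. They were chosen after the hexamers had been counted.
H19: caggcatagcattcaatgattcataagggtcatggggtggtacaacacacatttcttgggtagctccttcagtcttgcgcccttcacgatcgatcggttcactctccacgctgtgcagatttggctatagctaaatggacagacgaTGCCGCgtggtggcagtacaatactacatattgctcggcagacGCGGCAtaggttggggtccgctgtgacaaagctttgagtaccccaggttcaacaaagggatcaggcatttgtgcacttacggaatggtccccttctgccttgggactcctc
Mest: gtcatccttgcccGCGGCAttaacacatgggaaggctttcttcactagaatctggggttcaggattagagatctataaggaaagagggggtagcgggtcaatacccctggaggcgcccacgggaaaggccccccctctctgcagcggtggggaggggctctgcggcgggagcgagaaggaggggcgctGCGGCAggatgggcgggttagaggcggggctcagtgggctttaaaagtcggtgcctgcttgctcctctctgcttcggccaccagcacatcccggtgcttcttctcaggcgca
Plagl1: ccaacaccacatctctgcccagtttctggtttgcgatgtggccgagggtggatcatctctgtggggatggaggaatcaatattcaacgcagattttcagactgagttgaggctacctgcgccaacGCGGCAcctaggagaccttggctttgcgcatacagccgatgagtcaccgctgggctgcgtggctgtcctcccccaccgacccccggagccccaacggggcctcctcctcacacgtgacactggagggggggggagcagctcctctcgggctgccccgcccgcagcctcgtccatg
Grb10: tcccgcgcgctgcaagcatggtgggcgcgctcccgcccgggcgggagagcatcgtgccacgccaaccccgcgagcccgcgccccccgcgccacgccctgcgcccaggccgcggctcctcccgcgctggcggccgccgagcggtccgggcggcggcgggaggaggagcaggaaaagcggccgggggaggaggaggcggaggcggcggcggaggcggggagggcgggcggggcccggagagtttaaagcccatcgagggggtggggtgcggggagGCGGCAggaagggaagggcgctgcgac

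In clone KO26 few of the listed imprinted genes were called different from WT. With 2 KO26 libraries, a gene that was not called is not shown to be unchanged. Of the 31 members 2 were lower, Dlk1 and Grb10, and none was higher, beside 0.719% of all 20737 genes called lower and 1.21% called higher. At an unadjusted p under 0.05 there were 7 of 31 members, beside 20.1% of all genes, and DESeq2's test also called 2 lower and none higher. The median log2 fold change of the members was -0.06, beside 0.03 for all genes. Dlk1 stood at 11.9 and 9.72 CPM against 21 to 31.5 CPM in WT (log2 fold change -1.26, SE 0.18, adjusted p = 0.00934). Its call was lost without WT replicate 1 (log2 fold change -1.13), without KO26 replicate 1 (-1.22) and without the batch term (-1.17, under the fold limit at an adjusted p of 0.0426). Grb10 was lower in both KO26 libraries (log2 fold change -1.45, SE 0.14, adjusted p = 0.00139), but lost its call without the batch term (-1.27, adjusted p = 0.0613). Dio3 had 1 count over both KO26 libraries and 34 in WT, a ratio of 16.1 with an exact 95% interval of 2.7 to 653, and was not called (adjusted p = 0.0937). Its antisense neighbour Dio3os was called lower, at 0.0578 CPM in KO26 and 1.01 CPM in WT (adjusted p = 0.0433). Peg10 differed between the KO26 libraries, 43.6 CPM in batch 1 and 7.17 CPM in batch 2, and its log2 fold change of 1.50 was not called (adjusted p = 0.253). Without KO26 replicate 2 it was, at 2.75.

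The difference between the clones was tested directly. KO22 was lower than KO26 in 18 members and higher in 1, Grb10, beside 10.7% and 7.56% of all genes tested. Counted apart, Nespas was called higher in KO22 (1.25, adjusted p = 0.00435 by edgeR) and Zrsr1 lower (-2.29, adjusted p = 2.33e-05). Both clone comparisons with WT use the same 4 WT libraries, so their values stand side by side and were not set against each other. Grb10 had a log2 fold change of 3.29 (SE 0.15, adjusted p = 8.21e-07) between the clones. H19 (-6.52), Zim1 (-6.35), Plagl1 (-6.02), Peg3 (-5.44) and Mest (-4.65) were among those lower in KO22. Cdkn1c was at least 27.9-fold and Slc22a18 at least 17.0-fold lower in KO22 than in KO26. Leaving out replicate 1 or 2 of KO22 or KO26 moved some of these by more than 1.5 times. Peg3 then lay between -4.41 and -6.35 and Plagl1 between -5.02 and -7.03, and without KO22 replicate 2 H19 was at -7.66 and Zim1 at -7.04. Dlk1, Dio3 and Peg13, lower in KO22 than in WT, were not called between the clones. Peg10 was (log2 fold change -2.46, SE 0.77, adjusted p = 0.0304), and that call was lost without KO26 replicate 1 (log2 fold change -0.75, adjusted p = 0.382), while the value was -1.37 without KO22 replicate 1 and -3.83 without KO26 replicate 2.

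In every mRPE call the compared groups did not overlap, so its sign within each batch was fixed and is no separate support. Within batch 1, with 1 library a group, and within batch 2, each of the 21 members called in KO22, the 2 called in KO26 and the 19 called between the clones had the same sign as in the fit. For 10 of the 20 members lower in KO22, replicate 1 of batch 1 lay under both batch 2 libraries, and for 3 it lay above both. Leaving that library out gave a count of 20 lower and 1 higher again. The count ranged from 18 to 21 lower when each library was left out in turn. Counts under 20 came where Slc22a18 or Dio3 no longer passed the count filter and was not tested.

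Genes that set or read imprints were tested in the same fits. Of 32 imprint regulators 6 were higher and 1 lower, beside 11.4% and 13.8% of all genes, at a median log2 fold change of 0.50. Those named by the smallest adjusted p were Setdb1 (1.25), a histone methyltransferase, Rad21 (1.26) of cohesin, Dnmt1 (1.89), the maintenance methyltransferase, Dnmt3l, a cofactor of methylation in germ cells, and Hells (1.96) and Uhrf1 (2.38), which serve maintenance. Dnmt3l had a mean of 1.95 CPM in KO22 and was close to 0 in WT, at 0.0245 CPM. It passed the filter on low counts through KO22 alone, so it could only be called higher. Uhrf1 was also higher in KO26 (1.91, adjusted p = 0.0427), and Tet1, a methylcytosine dioxygenase gene, was lower in KO22 than in KO26 (-1.61). Of 9 tested genes of a list around the IGF2 axis, not all of which IGF2 acts through, 3 were lower in KO22, beside 13.8% of all genes. They were Igf1 (-5.50), Irs1 (-4.23) and Igf1r (-1.72), and 1 of the 9, Igf2bp2 (1.36), was higher, beside 11.4%. In KO26 none of the 9 was called.

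Imprinted genes outside the 40 were counted apart. Of 34 tested from a further list of 52, 8 were lower and 2 higher in KO22, beside 13.8% and 11.4% of all genes, and the median log2 fold change was -0.36. Several named ones lie beside members. Phactr2 went from 206 to 13.3 CPM, Copg2 from 61.4 to 7.52 CPM, and Pon3 (-2.67), in the Peg10 region, from 17.5 to 2.68 CPM. Ampd3 was lower (-1.67), and Htr2a (3.76) and Ano1 (2.22) were higher. In KO26 none of 35 was called, whereas 11 were lower and 2 higher in KO22 than in KO26 (10.7% and 7.56% of all genes). Proliferation markers stood beside these changes. All 4 (Mki67, Top2a, Ccnb1 and Pcna) were higher in KO22, and their summed level was 1894 to 3065 CPM in KO22, 1538 to 1701 CPM in KO26 and 691 to 867 CPM in WT. Fibroblast markers were lower in 4 of 5, summing to 4104 to 5869 CPM in KO22. Smooth muscle and pericyte markers were also lower in 4 of 5, with sums of 963 to 2045 CPM in WT and 269.7 to 386 CPM in KO22. Of 4 endothelial markers, 1 was lower (Kdr, from 177 to 2.21 CPM) and 1 higher (Plvap, from 0.297 to 1.17 CPM). The median log2 fold change of these 4 was 0.09. The 3 RPE markers with a row summed to 8.18 to 12.8 CPM in WT, 15.5 to 38.7 CPM in KO22 and 5.38 to 9.14 CPM in KO26. The part of any of these in the imprinted genes' levels was not tested.

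In RPE/choroid no imprinted gene was called different between Prom1-KO and WT by edgeR. Of the 35 tested, none was higher and none lower, beside 0% and 0.189% of all 24926 genes, and 4 had an unadjusted p under 0.05, beside 8.30% of all genes. The median log2 fold change of the members was -0.06, beside 0.01 for all genes. DESeq2's test called 1 member, Dlk1. RPE/choroid is a mixed tissue, and in bulk samples fewer cells of a type and less RNA per cell cannot be told apart. In 4 members every Prom1-KO library lay below every WT library and in 2 every one lay above, 7.89% and 6.71% of all genes doing so.

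Dlk1 had 0.617, 0.913 and 0.831 CPM in WT and 0.0776, 0.0490 and 0.133 CPM in Prom1-KO, from 44, 54 and 57 counts against 4, 3 and 4. Its log2 fold change was -3.25 (SE 0.45, adjusted p = 0.054 by edgeR and 2.78e-05 by DESeq2). With fewer than 5 counts in every Prom1-KO library, Dlk1 passed the filter on low counts through WT alone and could only be called lower. Igf2 had 0.898, 0.778 and 0.816 CPM in WT and 0.330, 0.392 and 0.332 CPM in Prom1-KO (log2 fold change -1.23, SE 0.28, adjusted p = 0.21). Zdbf2, a paternally expressed gene of chromosome 1, was lower in every Prom1-KO library as well. It had 4.18, 3.55 and 4.18 CPM in WT and 2.52, 2.15 and 1.99 CPM in Prom1-KO (log2 fold change -0.83, SE 0.17, adjusted p = 0.185). Kcnq1 was the fourth, with a mean of 1.07 ± 0.152 CPM in WT and 0.714 ± 0.222 CPM in Prom1-KO (SD, n = 3). The 2 members above WT in every library were Sfmbt2 (log2 fold change 1.03, SE 0.33, adjusted p = 0.438) and Peg10 (log2 fold change 0.43, SE 0.25, adjusted p = 0.718).

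**Figure D4:**
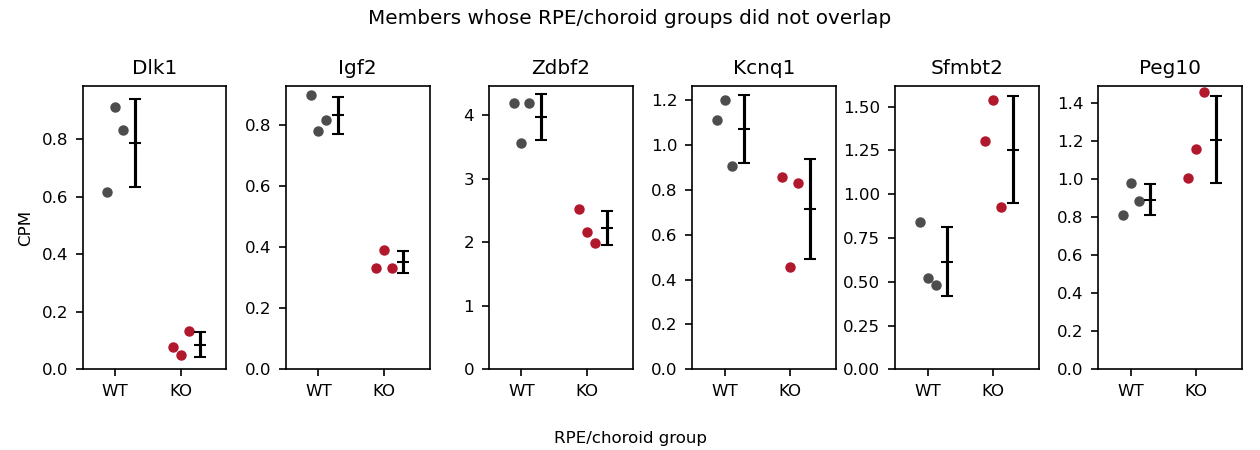
CPM in the 3 WT and 3 Prom1-KO RPE/choroid libraries (points, with mean and SD as bars) of the 6 imprinted genes whose groups did not overlap. Dlk1 lies at 0.0490 to 0.133 CPM in Prom1-KO and 0.617 to 0.913 CPM in WT, and no gene shown passed the adjusted p limit of edgeR.

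Of the members that fell in KO22, H19, Peg3, Meg3, Mest and Plagl1 overlapped between the tissue groups, unlike Dlk1 and Igf2. H19 had 4.73, 12.3 and 8.03 CPM in WT tissue and 4.43, 4.41 and 16.8 CPM in Prom1-KO tissue. Peg3 (24.8, 30.9 and 54.4 CPM in WT and 46.4, 34 and 42.1 CPM in Prom1-KO) and Meg3 (19.9, 28.6 and 133 and 85, 24.1 and 65.9 CPM) varied more within the groups than between them. The single members of their domains lay close together. Mest had 18.9, 14.2 and 18 and 23.3, 18 and 14.5 CPM (log2 fold change 0.13, SE 0.20, adjusted p = 0.912). Plagl1 had 14.8, 17.6 and 14.6 and 16.7, 14.7 and 22.2 CPM (log2 fold change 0.19, SE 0.18, adjusted p = 0.846). Grb10 had 16.8, 16.4 and 18 and 17.4, 15.9 and 12.2 CPM (log2 fold change -0.17, SE 0.16, adjusted p = 0.846). All of these are given for WT first and Prom1-KO second.

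Leaders of the other domains by level per length in WT tissue did not pass the test either. Cdkn1c had 4.52, 8.10 and 9.37 CPM in WT and 2.78, 3.22 and 8.92 CPM in Prom1-KO (log2 fold change -0.58, SE 0.48, adjusted p = 0.814). Ppp1r9a had 33.9, 28.9 and 35.4 and 38.9, 31.5 and 28.3 CPM, and its log2 fold change was 0.01 (SE 0.16). Gnas, at 122, 144 and 159.6 CPM in WT and 110.4, 118 and 158 CPM in Prom1-KO, was the highest per length of all members (log2 fold change -0.14, SE 0.19, adjusted p = 0.893). Ndn had a mean of 3.83 ± 1.23 CPM in WT and 5.29 ± 1.40 CPM in Prom1-KO (SD, n = 3). For Nap1l5, tested in tissue only, the means were 5.31 ± 2.42 and 6.87 ± 2.04 CPM. Peg13 (log2 fold change -0.11, SE 0.22, adjusted p = 0.942), Igf2r (log2 fold change -0.13, SE 0.19, adjusted p = 0.898), Nnat (log2 fold change 0.06, SE 0.47, adjusted p = 0.988) and Impact (log2 fold change -0.23, SE 0.17, adjusted p = 0.785) overlapped between groups. Phlda2 and Asb4, at 0.112 to 0.252 CPM in WT, were close to the limit of detection. Over all 35, log2 fold changes ran from -3.25 for Dlk1 to 1.69 for Dio3, which had 2 to 21 counts per WT library and 5 to 43 per Prom1-KO library. By identifier, Zrsr1 had 9.05, 9.44 and 9.84 CPM in WT and 8.93, 9.16 and 8.62 CPM in Prom1-KO, and Nespas had log2 fold change -0.31, neither called.

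The make-up of the tissue libraries differed between the groups. All 10 RPE markers had negative log2 fold changes in Prom1-KO, and 3 were called lower (Rpe65 -6.06, Rgr -5.23 and Lrat -3.43). Their summed level was 2008 to 2903 CPM in WT and 572 to 774 CPM in Prom1-KO. The part of the RPE signal in the levels of Dlk1, Igf2 or Zdbf2 was not tested. Marker sums of photoreceptors ran from 40.3 to 1146 CPM over the WT libraries and from 19.8 to 556 CPM over the Prom1-KO libraries. Without Prom1-KO replicate 3, the library rich in mitochondrial ribosomal RNA, no member was called either. Of the further 43 imprinted genes, 31 imprint regulators and 10 genes of the IGF2 axis tested, none was called.

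In WT cells and WT tissue the same genes stood at different levels. Per kb of exon, 25 of the 31 members in both tables were higher in WT mRPE and 6 were higher in WT RPE/choroid (Kcnq1, Cdkn1c, Slc22a18, Ppp1r9a, Snrpn and Peg13). In WT mRPE the highest were Peg3 (77.4 CPM per kb), Gnas (58.4), Plagl1 (40.3), Igf2r (19.8) and Impact (16.3). In WT tissue they were Gnas (11.8 CPM per kb), Peg13 (3.53), Cdkn1c (3.40), Meg3 (3.14) and Kcnq1ot1 (2.98). Zim1 had 8.31 CPM per kb in cells and 0.108 in tissue, and Ppp1r9a 0.212 and 2.15. The tables were made separately, mitochondrial ribosomal RNA takes 55.3% to 59.6% of the WT tissue counts and lowers all other values there, and no test was run between them.

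**Figure D5:**
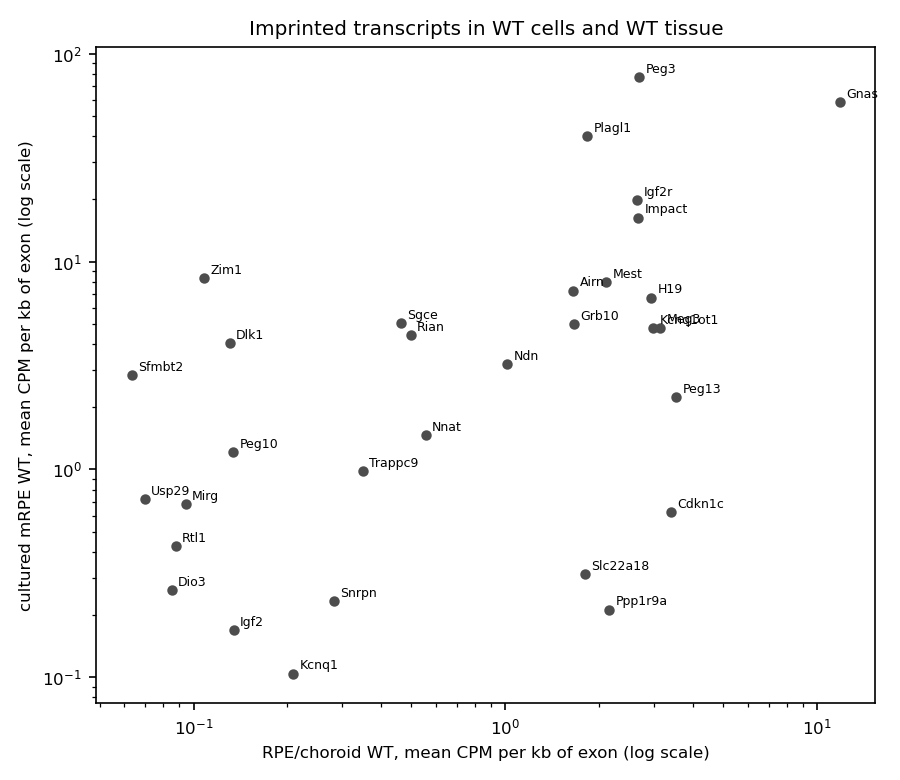
Mean CPM per kb of exon of the 31 imprinted genes with a row in both tables, in WT RPE/choroid (x axis, n = 3) and WT cultured mRPE (y axis, n = 4), both on log scales. Peg3 and Plagl1 lie at 77.4 and 40.3 CPM per kb in mRPE and at 2.69 and 1.83 in tissue, whereas Ppp1r9a lies at 0.212 and 2.15.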

How the data were processed

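RNA sequencing was analysed in 9 libraries of cultured mRPE cells and 6 of RPE/choroid. The authors made the raw gene counts from stranded libraries: reads were trimmed with Trim Galore 0.6.7 and mapped and counted with STAR on mm39, and the deposited counts are whole numbers per gene and library. Which strand was counted is not given in the sources used here. Deposited normalized tables are the raw counts divided by 1 constant per library and were not used.

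Genes that reached 5 counts in 3 or more libraries of a fit were tested with edgeR 4.0.16 (R 4.3.3) by its quasi-likelihood test after TMM scaling, with Benjamini-Hochberg adjustment over all genes tested. KO22 was compared with WT in 7 libraries, KO26 with WT and KO22 with KO26 in 1 fit over 9, each with sequencing batch as a term, and Prom1-KO with WT tissue in 6. The SE of a log2 fold change was taken from the F statistic, whose square root is the ratio of the size of the change to its SE. A gene was called at an adjusted p below 0.05 with a log2 fold change beyond 1.2 in size. Where a group had no count, the bound uses 3 counts over the group, and where it had 1 count the ratio has an exact 95% interval. Neighbours are tested genes within 1 Mb of a domain's members, without members and the other listed imprinted genes. At most 2 called ones per domain, by smallest adjusted p, are named, and besides them some that are centred within a member. Members called, alone in their domain or highest per length in it were given in full.

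The members and the lists of other genes were chosen with earlier results of these data known. Alternatives were DESeq2 1.42.0, its size factors, other count filters, no fold limit, no batch term, other sets of libraries and each library left out. A tissue fit without mitochondrial genes was added after their share was seen. The scripts were tested on simulated counts. No pair of libraries agreed within counting noise, which does not show that they came from separate cultures or animals. Each was counted as 1 sample.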

Additional observations from a re-analysis of the deposited data

Results flagged for a closer look

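Among the 4 WT mRPE libraries, 1 stood apart from the others for 2 of the 31 genes examined, where chance alone marks about 1 in 20. Kcnq1ot1 was 353 CPM in WT replicate 1, of batch 1, and 477 to 485 CPM in the others. Sfmbt2 was 31.5 CPM in WT replicate 2 and 26 to 26.9 CPM in the others.

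Clones KO22 and KO26 differed in 19 imprinted genes by the test of the difference itself. Grb10 was higher in KO22, with a log2 fold change of 3.29 against KO26, and 18 were lower. In the chromosome 7 domains these were H19 (-6.52), Peg3 (-5.44), Usp29 (-4.87), Zim1 (-6.35), Ndn (-2.73) and Snrpn (-4.64), together with Igf2, for which KO26 was 79.3 times KO22 (exact 95% interval 13.6 to 3191, from 1 count in KO22), Cdkn1c, at least 27.9 times lower in KO22, and Slc22a18, at least 17 times lower. In the Dlk1-Dio3 domain they were Rtl1 (-2.37), Meg3 (-2.65), Rian (-2.63) and Mirg (-2.81). On chromosomes 6 and 10 they were Peg10 (-2.46), Sgce (-3.89), Ppp1r9a (-3.89), Mest (-4.65) and Plagl1 (-6.02). With 1 KO22 or KO26 library left out, the fold between the clones moved by more than 1.5 times (log2 fold changes in parentheses) for Ppp1r9a (-3.26 to -5.35), Snrpn (to -5.75), Usp29 (-4.17 to -6.00), Ndn (to -2.11), H19 (to -7.66), Zim1 (to -7.04), Peg3 (-4.41 to -6.35), Plagl1 (-5.02 to -7.03) and Peg10 (-0.75 to -3.83), and so did the fitted log2 fold changes of Igf2 (-5.02 to -7.69) and Cdkn1c (-6.47 to -8.00), which rest on 1 KO22 count for Igf2 and on none for Cdkn1c. Since each clone is 1 line, what sets the clones apart cannot be told from these libraries.

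For 3 genes every Prom1-KO tissue library lay on one side of WT and every KO22 library on the other side of WT mRPE. Kcnq1 had a log2 fold change of -0.6 in RPE/choroid and 0.68 in KO22, Peg10 of 0.43 and -1.10, and Sfmbt2 of 1.03 and -0.48. Over all genes, 24.8% lay above and 25.3% below WT in every KO22 library, and 6.71% and 7.89% in every Prom1-KO tissue library. The share of all genes that lay on opposite sides in both was not counted, so the 3 cannot be read as many or few. None of the 3 was called in KO22 or in tissue, and the difference was not tested.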

How the results depend on the processing

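In KO22 the count of members lower than WT ran from 18 to 23 over all alternatives, with 1 higher in each. All 286 values of the called genes that could be tested kept their direction and their call. Slc22a18 and Dio3 were not tested under another count filter and with some WT libraries left out. Counts under 20 came from such settings, with 28 to 30 members tested. For KO26, without the batch term the count of lower members was 0. With each library left out it ran from 1 to 2, and the count of higher members from 0 to 1. Peg10 made the 1, at a log2 fold change of 2.75 without KO26 replicate 2 (adjusted p = 0.0372), and turned to -0.34 without KO26 replicate 1. KO22 was higher than KO26 in 2 members with no fold limit, Grb10 and Kcnq1ot1, and lower in 17 to 21. In RPE/choroid DESeq2 called 1 member lower, Dlk1 (-3.30), whose edgeR log2 fold change ran from -2.93 to -3.62 with a Prom1-KO library left out. With a WT library left out Dlk1 did not reach the count minimum and was not tested. Without mitochondrial genes no member was called. The other alternatives kept each count of members within 1.5 times.

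Over all genes, calls rose from 5154 to 10837 (KO22), from 399 to 725 (KO26) and from 3797 to 7132 (between clones) with no fold limit. For KO26 they were 629 by DESeq2, 818 in a fit over 6 libraries, 194 without the batch term and 114 to 626 with a library left out. In RPE/choroid they were 273 by DESeq2 against 47, and 9 to 40 with a library left out. Genes with 1 count or none in a group are limited by depth, here Igf2, Dio3, Cdkn1c and Slc22a18. The labels give the groups no shared replicate numbers, so no replicate block was fitted, and sequencing batch, which all mRPE groups share, was a term of the mRPE fits.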
